A study of Mus musculus with 7 samples.

Results

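Myelin structural genes encode the proteins and lipid-modifying enzymes of the sheath that oligodendrocytes wrap around axons in the brain. The 9 genes described here are Mbp, Mobp, Mal, Cnp, Mag, Mog, Fa2h, Cldn11 and Plekhb1, taken by gene symbol from the deposited counts, and all 9 were found among the 35976 gene symbols of the table. They were followed across 7 RNA-seq libraries of mouse amygdala cells, 4 with the control guide sgRosa and 3 with the guide sgNr2f2.

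All mice were male C57BL/6J. Each received an adeno-associated virus (AAV) in the amygdala that carried a guide RNA against either Nr2f2, a nuclear receptor gene, or the Rosa locus, a neutral control site, with Cas9 driven by the Hsyn (synapsin) promoter, which is active in neurons. In both groups expression lasted more than 2 weeks and was followed by restraint in tubes on 7 days, fear conditioning on 1 day and extinction on 3 days, so no library is from an unstressed mouse. The amygdala was digested with papain and passed through a magnetic kit meant to keep neurons, so oligodendrocytes were neither the cells in which this promoter is active nor the cells to be kept. The labels do not say whether a library came from 1 animal or a pool, and p-values measure only the spread between these libraries, which may be technical.

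Compact myelin forms when an oligodendrocyte process spirals around an axon, loses its cytoplasm and fuses its inner membrane faces. Basic proteins such as MBP hold those inner faces together, adhesion molecules such as MAG and MOG sit on the innermost and outermost surfaces, and hydroxylated sphingolipids and tight junctions seal the sheath. Mbp messenger RNA is carried out of the cell body and translated in the processes next to the forming sheath.

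Library totals ran from 6266897 counts in sgRosa replicate 4 to 20928677 in sgNr2f2 replicate 3. The libraries were labelled as neurons, but 16 neuron genes such as Snap25 and Rbfox3 together took 0.0521 to 0.284% of counts, and 10 microglia genes took 0.00284 to 0.00497%. One library, sgRosa replicate 4, stood apart. On log2 CPM (a gene's count relative to the size of its library, scaled by edgeR's TMM factors) it correlated with the remaining libraries at a mean r of 0.723, whereas each of those had 0.876 to 0.9004, and 5 erythroid genes took 3.70% of its counts against 0.0958 to 0.316% elsewhere. The targeted gene Nr2f2 lay at 15.1 ± 3.76 CPM in sgRosa (SD, n = 4) and 11.8 ± 0.22 CPM in sgNr2f2 (n = 3), a log2 fold change of -0.36 (SE 0.37) that did not pass edgeR's test (adjusted p = 0.905).

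Myelin transcripts were among the most abundant RNAs of the data. Of all counts, the 9 genes together took 13.6, 29.5, 29.6 and 3.89% across sgRosa replicates 1 to 4. Across sgNr2f2 replicates 1 to 3 they took 29.8, 18.3 and 32.8%. The mean was 19.1 ± 12.7% in sgRosa (SD, n = 4) and 27.0 ± 7.67% in sgNr2f2 (n = 3), with groups that overlapped. Without sgRosa replicate 4 the sgRosa mean was 24.2 ± 9.23%. In these mixed samples fewer oligodendrocytes and less myelin RNA per cell cannot be told apart. Counting error was small for most values. It was not small for the lowest of them, 55 counts of Fa2h in sgRosa replicate 4. The 95% Wilson interval there was 6.74 to 11.4 CPM around 8.78 (on the plain library total), and such intervals cover counting error only.

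**Figure D1:**
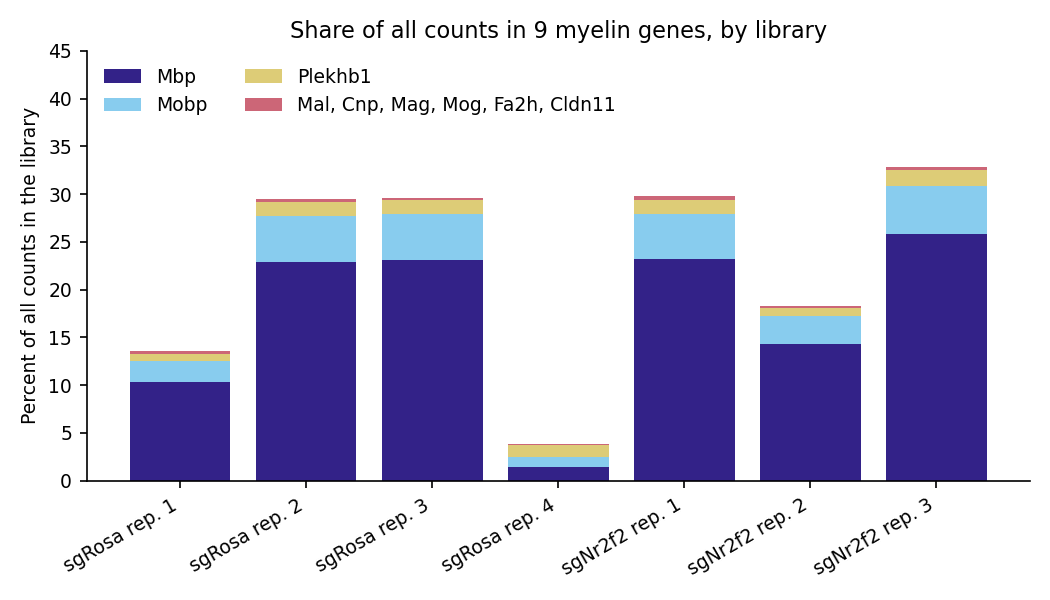
Percent of all counts taken by Mbp, Mobp, Plekhb1 and the other 6 myelin genes (stacked bars) in each of the 7 libraries. Mbp fills most of every bar except that of sgRosa replicate 4, where the whole bar reaches 3.89%, and the bars of sgRosa replicate 1 and sgNr2f2 replicate 2 stop at 13.6 and 18.3%.

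The libraries with little myelin were not all of one group. After sgRosa replicate 4 the lowest shares were those of sgRosa replicate 1 and sgNr2f2 replicate 2. Both also had the most endothelial RNA, with 0.973 and 0.795% of counts in 8 endothelial genes against 0.278 to 0.4999% in the other 5 libraries. The summed share of 16 neuron genes was highest where myelin was lowest, at 0.284% in sgRosa replicate 4 and 0.147% in sgRosa replicate 1. In sgNr2f2 replicate 2 it was 0.0625%, within the 0.0521 to 0.0718% of the rest. The genes of this list did not all move together. In sgRosa replicate 4 Rbfox3 had its highest share of counts (414 of 6266897), but Snap25 its lowest (271). In sgNr2f2 replicate 1 they had 245 and 2109 of 18112558. The part of these other cell types in the myelin shares was not tested.

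**Figure D2:**
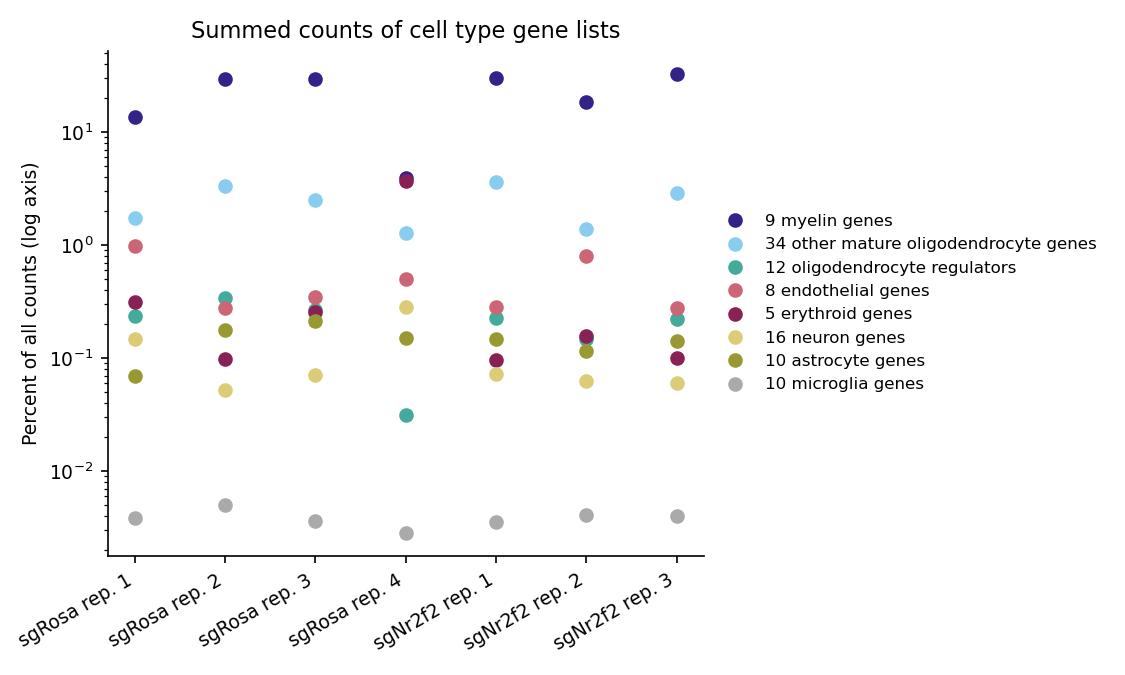
Summed share of all counts (log axis) of the 9 myelin genes, 2 further oligodendrocyte lists and lists of 5 other cell types in each library (1 point per list and library). sgRosa replicate 4 has the lowest points of all 3 oligodendrocyte lists and an erythroid point of 3.70%.

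Counts were very unequal between the genes. Mbp, Mobp and Plekhb1 held 97.3 to 99.3% of the summed counts of the 9 genes in each library, and the other 6 shared the remaining 0.685 to 2.68%. Longer transcripts give more counts, so levels were compared between genes as TMM-scaled CPM per kilobase of merged exon in the GENCODE M21 annotation of mm10. Over the 7 libraries the mean level per kilobase was 23199 for Mbp, 8389 for Mobp, 3975 for Plekhb1, 487 for Cnp, 328 for Mal, 148 for Mag, 119.7 for Cldn11, 119.1 for Mog and 41.6 for Fa2h. The step from Plekhb1 down to Cnp was the same way in all 7 libraries, as were those from Mal to Mag and from Mog to Fa2h. Neighbours changed places elsewhere: Cnp lay above Mal in 5 of 7 libraries, Mag above Cldn11 in 5, and Cldn11 above Mog in 4. Mbp lay above Mobp, and Mobp above Plekhb1, in 6 libraries, the exception each time being sgRosa replicate 4. The gene models behind the counts may differ from these, so the order holds only for these exon lengths.

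Among the basic proteins of the cytoplasmic face, Mbp (chromosome 18, 82475146 to 82585637, mm10) lay at 74017, 244940, 275078 and 12541 CPM across sgRosa replicates 1 to 4, and at 253815, 132321 and 326396 CPM across the 3 sgNr2f2 libraries. The highest and lowest libraries differed 26.0-fold, and 4.41-fold without sgRosa replicate 4. Mobp (chromosome 9, 120149707 to 120181484), which encodes a second small basic protein of compact myelin, lay at 16337, 51029, 57954 and 8411 CPM in sgRosa and at 51517, 26828 and 63226 CPM in sgNr2f2. For both genes sgNr2f2 replicate 3 was highest, sgRosa replicate 4 lowest and sgRosa replicate 1 next to lowest, and the groups overlapped.

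Plekhb1 (chromosome 7, 100642892 to 100662414) encodes a membrane-associated protein with a pleckstrin homology domain. It lay at 4986, 15798, 17294 and 11352 CPM in sgRosa and at 16247, 8133 and 21360 CPM in sgNr2f2. Its lowest library was sgRosa replicate 1, and sgRosa replicate 4, where Mbp was lowest, stood at rank 5 of 7.

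**Figure D3:**
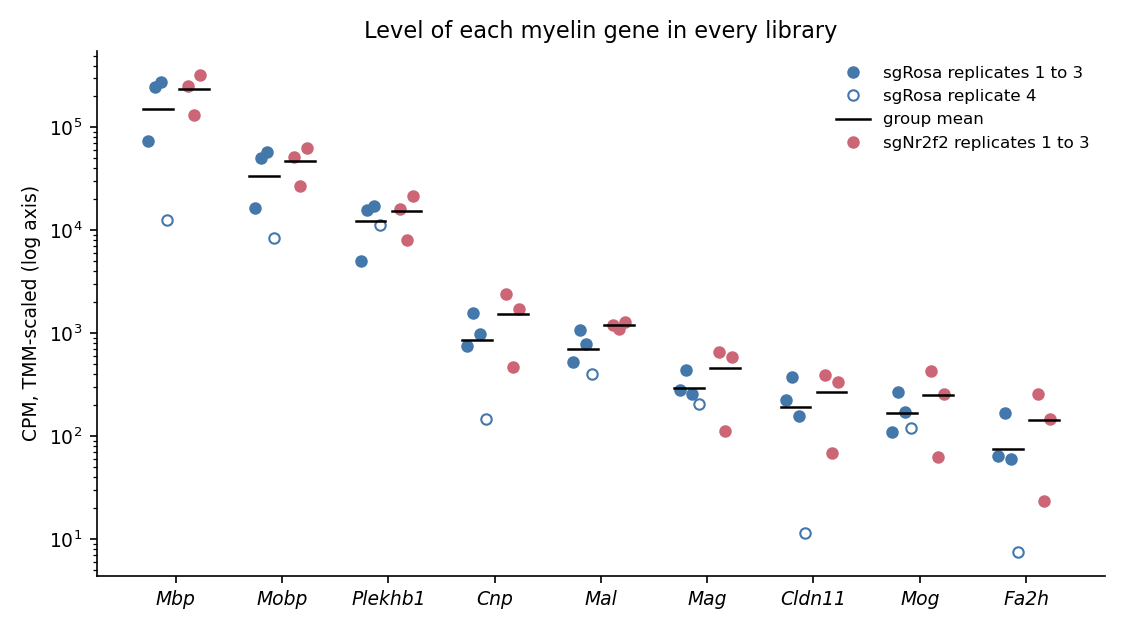
TMM-scaled CPM (log axis) of each myelin gene in every library, with sgRosa in blue (replicate 4 as an open circle), sgNr2f2 in red and the group mean as a black line. The groups overlap for every gene but Mal, and the open circle is far below the others for Mbp, Cnp, Cldn11 and Fa2h but not for Plekhb1, Mag or Mog.

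Relative to Mbp, the other abundant genes held a nearly fixed proportion in 6 libraries. There were 194 to 221 Mobp counts and 61.5 to 67.4 Plekhb1 counts per 1000 Mbp counts in all libraries but sgRosa replicate 4, with coefficients of variation of 4.40 and 3.18%, while the Mbp share itself ran from 10.3 to 25.8% of all counts. No other gene of a list of 34 further mature oligodendrocyte genes kept so even a ratio to Mbp over these 6 libraries. Their coefficients of variation ran from 7.01% for Bcas1, which encodes a myelin-associated protein, to 97.5% for Nfasc, which encodes the adhesion molecule neurofascin, with a median of 38.1%. The 6 less abundant myelin genes had coefficients of 39.0% (Mal), 44.7% (Cnp), 47.2% (Mog), 56.0% (Mag), 60.3% (Fa2h) and 68.0% (Cldn11). These ratios are a description of 6 libraries, and genes with many counts have smaller counting error. As shares of the 9 genes' own counts, the 6 libraries gave 76.1 to 78.6% to Mbp, 15.2 to 16.8% to Mobp and 4.81 to 5.14% to Plekhb1, in both groups.

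In sgRosa replicate 4 these proportions were different. Mbp took 37.8% of the 9 genes' counts there, Mobp 25.3% and Plekhb1 34.2%. Per 1000 Mbp counts this library had 905 Plekhb1 counts, 14.1 times the median of the other 6 libraries. It also had 10.04 times that median for Mog, 9.09 times for Mag, 7.02 times for Mal, 3.26 times for Mobp and 2.01 times for Cnp. For Fa2h and Cldn11 the factors were 1.06 and 0.701, so their ratios to Mbp were closest to those of the other libraries, though on only 55 and 83 counts. Of the 34 further oligodendrocyte genes the factor was 9.12 at the median, from 0.3997 for Tmem88b to 34.4 for Cntn2, which encodes a neural adhesion molecule. The library also had the smallest total and the most erythroid RNA, and the part of either in these proportions was not tested.

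**Figure D4:**
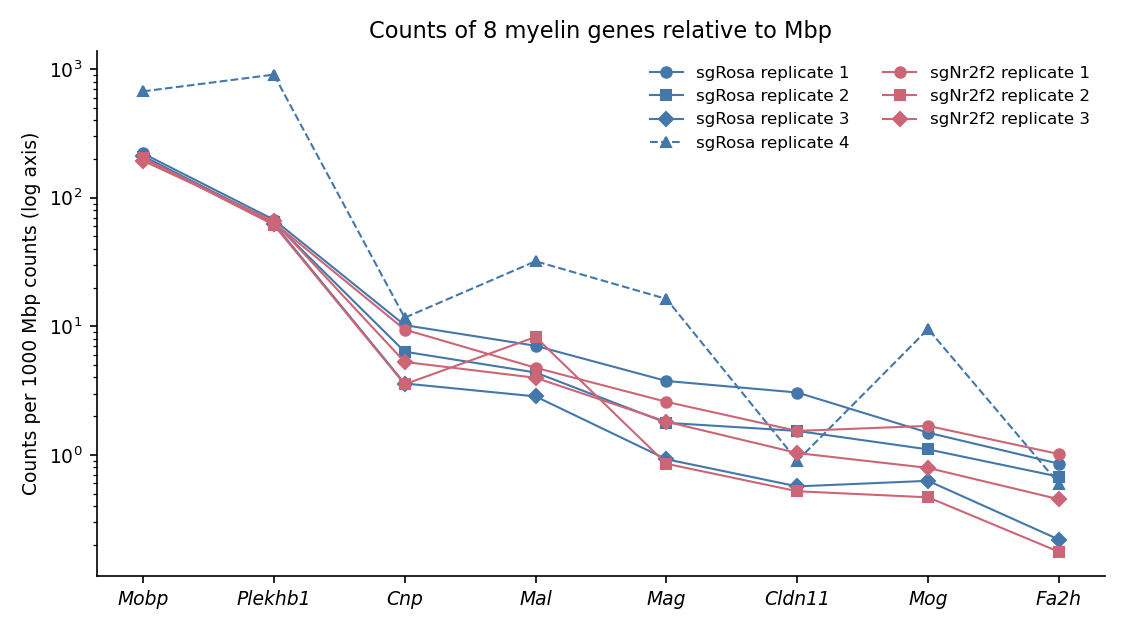
Counts of 8 myelin genes per 1000 Mbp counts (log axis), with 1 line per library (sgRosa blue, sgNr2f2 red). The lines of 6 libraries coincide at Mobp and Plekhb1 and spread from Cnp onward, while the dashed line of sgRosa replicate 4 reaches 905 at Plekhb1.

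Promoters are shown for Mobp and Plekhb1, whose ratio to Mbp was nearly even over the 6 libraries without sgRosa replicate 4, and for Cnp and Mag, whose ratio varied more over those 6. Over all 7 libraries the coefficients of variation were 64.4% for Mobp, 172% for Plekhb1, 45.9% for Cnp and 138% for Mag. Each is 250 bases before to 50 after an annotated start, from RefSeq on GRCm38.p6, the assembly of mm10. Capitals mark matches, on either strand, to 1 of 2 forms of the site bound by the myelin regulator MYRF, first CTGGCAC and second CTGGTAC, or of the site bound by SOX factors, first ACAAAG and second ACAATG.
Mobp, chr9:120149492-120149791, plus strand: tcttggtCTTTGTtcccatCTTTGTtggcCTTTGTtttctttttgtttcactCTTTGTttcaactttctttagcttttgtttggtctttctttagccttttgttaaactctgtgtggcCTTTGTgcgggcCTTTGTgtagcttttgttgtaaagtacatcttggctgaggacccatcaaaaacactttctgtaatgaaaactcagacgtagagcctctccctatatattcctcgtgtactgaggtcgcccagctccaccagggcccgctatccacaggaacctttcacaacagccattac
Plekhb1, chr7:100662345-100662644, minus strand: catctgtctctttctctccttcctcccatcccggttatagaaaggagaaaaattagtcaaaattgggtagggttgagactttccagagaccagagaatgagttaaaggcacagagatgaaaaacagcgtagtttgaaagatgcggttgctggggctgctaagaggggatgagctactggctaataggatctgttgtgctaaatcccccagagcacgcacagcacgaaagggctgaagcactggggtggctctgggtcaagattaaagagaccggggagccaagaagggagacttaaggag
Cnp, chr11:100574689-100574988, plus strand: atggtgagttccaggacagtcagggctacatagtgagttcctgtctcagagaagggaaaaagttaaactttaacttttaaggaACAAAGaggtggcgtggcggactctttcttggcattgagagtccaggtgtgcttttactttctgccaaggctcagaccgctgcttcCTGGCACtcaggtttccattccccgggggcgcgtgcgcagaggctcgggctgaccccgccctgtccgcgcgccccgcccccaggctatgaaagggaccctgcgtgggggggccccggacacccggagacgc
Mag, chr7:30914814-30915113, minus strand: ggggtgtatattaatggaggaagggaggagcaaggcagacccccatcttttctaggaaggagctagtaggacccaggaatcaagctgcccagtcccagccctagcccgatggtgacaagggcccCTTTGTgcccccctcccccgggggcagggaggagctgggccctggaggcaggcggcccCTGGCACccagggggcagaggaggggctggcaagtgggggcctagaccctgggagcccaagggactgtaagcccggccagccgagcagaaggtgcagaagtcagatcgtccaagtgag
The search also held an E-box of the kind bound by OLIG factors (CAGCTG), a nuclear receptor half-site (AGGTCA) and a TATA box (TATAAA), and none of the searched motifs overlapped another in these 4 windows.

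RefSeq promoters of 7 of the 9 genes were searched, with 10 windows in all, since Mag had 3 starts and Plekhb1 had 2. Windows on chromosome 18, where Mbp lies, were left out of this set but kept among all promoters. Whether Mbp windows hold the motifs was therefore not examined, and no window was matched for Fa2h. The first SOX form was in 5 of the 10 windows, against 18.7% of all 32851 promoters, and the Mobp window held it 6 times. These windows belonged to Cnp, Mobp, the Plekhb1 start not shown and 2 overlapping starts of Mag, which hold the same match. The first MYRF form was in 3 windows, 1 of Cnp and 2 overlapping ones of Mag, against 5.01% of all promoters, and the second form in that of Mog, against 2.24%. In Cnp and in the Mag window shown, the MYRF form began 81 and 68 bases before the start. The Mag window from 30914272, not shown, held none of the searched motifs. Of the genes not shown, Cldn11 and Mal held none either, and Mog held only the second MYRF form. Their ratios to Mbp also varied, with coefficients of 68.0, 39.0 and 47.2%. The windows shown are therefore no comparison of motifs between genes of even and of varying ratio. The second SOX form, the E-box, the half-site and the TATA box were in 0 of the 10 windows, against 12.6, 16.3, 16.3 and 13.6% of all promoters. A match is a string of letters and not a measured binding site, and a window without one says nothing about the factor.

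Mal (chromosome 2, 127633226 to 127656695), which encodes a small membrane proteolipid of myelin and sorting vesicles, was the only one of the 9 genes whose groups did not overlap. It lay at 522, 1071, 784 and 402 CPM across sgRosa replicates 1 to 4, and at 1208, 1093 and 1298 CPM across the 3 sgNr2f2 libraries. Every sgNr2f2 library was above every sgRosa library, although sgNr2f2 replicate 2 at 1093 CPM and sgRosa replicate 2 at 1071 CPM nearly touched. The means were 695 ± 297 CPM in sgRosa (SD, n = 4) and 1200.04 ± 103 CPM in sgNr2f2 (n = 3), a log2 fold change of 0.79 (SE 0.52, 95% interval -0.36 to 1.94), which did not pass edgeR's test (adjusted p = 0.868). Groups that did not overlap, with sgNr2f2 higher, were found for 4.41% of the 14412 genes tested, and with sgNr2f2 lower for 3.90%, so 1 of 9 is no result about the myelin genes. Mal was also the steadiest of the 9 in sgNr2f2, with a coefficient of variation of 8.55%, against 39.4 to 82.1% for the other 8. Its share of the 9 genes' own counts overlapped between the groups, at 0.222 to 1.21% in sgRosa and 0.313 to 0.647% in sgNr2f2.

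Cnp (chromosome 11, 100574904 to 100591729) encodes a cyclic nucleotide phosphodiesterase that keeps cytoplasmic channels open within the sheath. It lay at 755, 1554, 988 and 146 CPM in sgRosa and at 2393, 469 and 1724 CPM in sgNr2f2. The highest and the next highest libraries were both sgNr2f2, but sgNr2f2 replicate 2 lay below 3 of the 4 sgRosa libraries. Fa2h (chromosome 8, 111345135 to 111393824), the hydroxylase of myelin sphingolipids, had the same highest, lowest and next to lowest libraries, with 63.3, 166, 60.4 and 7.49 CPM in sgRosa and 258, 23.3 and 148 CPM in sgNr2f2. Cldn11 (chromosome 3, 31149920 to 31164324), the claudin of the tight junctions between myelin turns, lay at 226, 376, 157 and 11.3 CPM in sgRosa and at 390, 69.03 and 337 CPM in sgNr2f2. Fa2h and Cldn11 had the widest spread over the 7 libraries, 34.4-fold and 34.5-fold between the highest and the lowest, and 11.04-fold and 5.65-fold without sgRosa replicate 4.

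The surface adhesion genes were low in another library. Mag (chromosome 7, 30899176 to 30914873), a sialic acid-binding receptor on the innermost membrane facing the axon, lay at 278, 435, 254 and 205 CPM in sgRosa and at 656, 113 and 592 CPM in sgNr2f2. Mog (chromosome 17, 37010743 to 37023398), an immunoglobulin-like protein of the outermost surface, lay at 110, 270.3, 173 and 119 CPM in sgRosa and at 427, 61.9 and 259 CPM in sgNr2f2. For both genes sgNr2f2 held the highest library, replicate 1, and also the lowest, replicate 2. The ratio of Mog to Mag counts stayed between 0.396 and 0.68 in all 7 libraries, sgRosa replicate 4 included. Mag had 0.241 to 0.368 counts per Cnp count in 6 libraries and 1.4004 in sgRosa replicate 4.

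Within the sgNr2f2 group the libraries sorted the genes into 2 sets. Replicate 1 was the highest of all 7 libraries for Cnp, Mag, Mog, Fa2h and Cldn11, and replicate 3 for Mbp, Mobp, Mal and Plekhb1. Replicate 2 was lowest or next to lowest for Cnp, Mag, Mog, Fa2h, Cldn11 and Plekhb1, yet Mal there was above every sgRosa library. The ratio of Mal to Cnp counts was 2.33 in sgNr2f2 replicate 2 and 2.75 in sgRosa replicate 4, against 0.505 to 0.794 in the other 5 libraries.

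The design sets sgNr2f2 against sgRosa to find how targeting Nr2f2 in neurons alters RNA after stress. All 9 myelin genes lay on the higher side in sgNr2f2, and none passed edgeR's quasi-likelihood test at an adjusted p of 0.05. Over all genes 0.00% passed, with 0 of 14412 called, and 43.8% lay on the higher side. At an unadjusted p under 0.05 there were 0 of the 9, against 5.00% of all genes, 314 (2.18%) higher and 407 (2.82%) lower. DESeq2 called 0 of the 9 and 0.0486% of all genes, and limma-voom called 0 of either. The 9 log2 fold changes had a median of 0.63, against -0.11 over all genes tested, and ran from 0.30 for Plekhb1 (SE 0.70, 95% interval -1.26 to 1.87) to 0.94 for Fa2h (SE 0.92, 95% interval -1.09 to 2.98). Cnp had 0.83 (SE 0.79), Mbp 0.65 (SE 1.08), Mag 0.63 (SE 0.62), Mog 0.57 (SE 0.64), Mobp 0.497 (SE 0.86) and Cldn11 0.46 (SE 0.92). Each interval included 0 and also changes beyond a log2 value of 1.5, so neither equal levels nor a large change was shown. The genes share libraries and are not independent, so 9 of 9 on 1 side is a count and not a test.

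**Figure D5:**
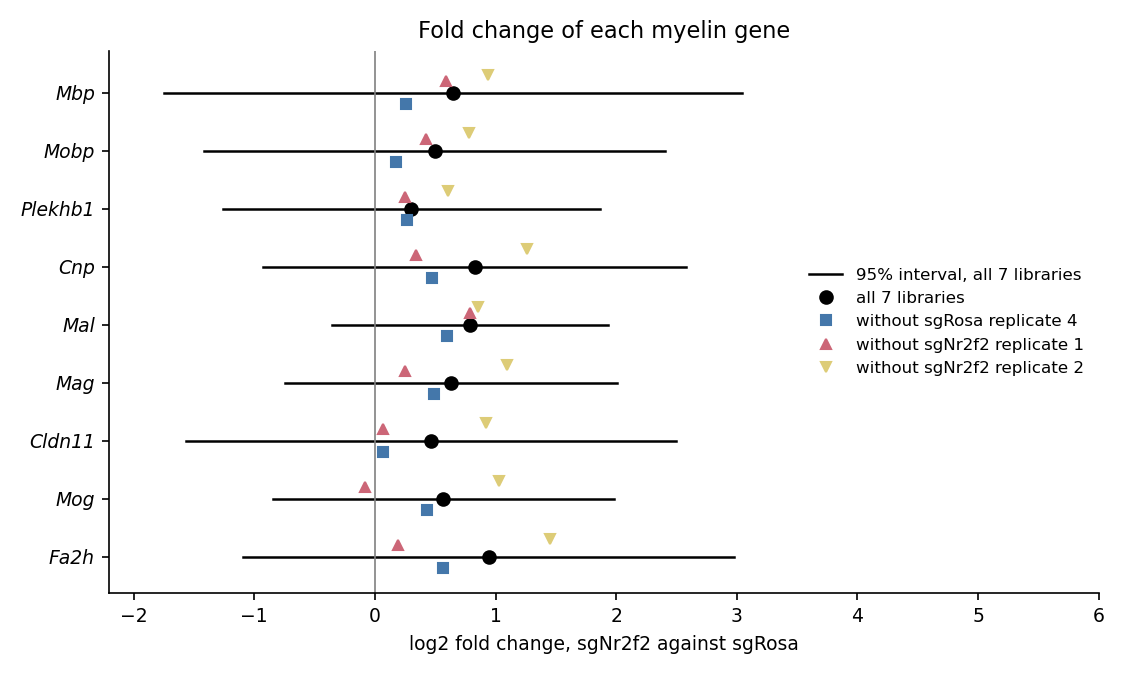
Log2 fold change of each myelin gene, sgNr2f2 against sgRosa, from edgeR with all 7 libraries (black circle, with its 95% interval as a line) and after leaving out 1 library (coloured symbols). All 9 intervals include 0, and without sgNr2f2 replicate 1 the symbol of Mog lies at -0.08.

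Single libraries moved these values. Without sgRosa replicate 4 the 9 log2 fold changes had a median of 0.43 and ran from 0.07 for Cldn11 to 0.598 for Mal, and that of Mbp went from 0.65 to 0.26. Without sgNr2f2 replicate 1 the median was 0.25 and Mog lay at -0.08, and without sgNr2f2 replicate 3 Plekhb1 lay at -0.0043. Without sgNr2f2 replicate 2 the median was 0.94, and without sgRosa replicate 2 it was 0.98. That of Mal stayed between 0.598 and 1.07 in each of the 7 fits that left out 1 library, with 0 of the 9 genes called in any of them.

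Other genes of the same cell type also lay mostly on the higher side, again without a call. Of 34 further mature oligodendrocyte genes 31 lay on the higher side, with a median log2 fold change of 0.25, 0 called and 0 whose groups did not overlap. Without sgRosa replicate 4 the count was 21 of 34 and the median 0.10, while 47.5% of all genes tested then lay higher. The smallest p-values belonged to Adamts4, a secreted protease, at 55.8 ± 33.6 and 122 ± 50.2 CPM, to Gal3st1, which adds sulfate to myelin galactolipids, at 6.63 ± 2.35 and 10.6 ± 6.51 CPM, and to Trf, the transferrin gene, at 1067 ± 936 and 2033 ± 1466 CPM. Of 12 transcription and RNA regulators of the lineage 11 lay on the higher side, with a median of 0.41, and 10 did so without sgRosa replicate 4. Their summed share of counts was not higher, at 0.219 ± 0.132% in sgRosa and 0.197 ± 0.0443% in sgNr2f2. Without sgRosa replicate 4 the sgRosa share was 0.281 ± 0.0531%. Tcf7l2, a Wnt pathway transcription factor of differentiating oligodendrocytes, lay at 64.02 ± 19.2 CPM in sgRosa (SD, n = 4) and 118 ± 28.2 CPM in sgNr2f2 (n = 3). Its groups did not overlap, and its log2 fold change of 0.89 (SE 0.43) did not pass (edgeR adjusted p = 0.868). It was the only 1 of the 12 without overlap. Of all 14412 genes tested, 4.41% had such groups with sgNr2f2 higher, so this is no result about the regulators. Myrf, the master regulator of myelin genes, lay at 30.7 ± 26.02 and 69.4 ± 38.4 CPM, and the homeobox gene Nkx6-2 at 13.98 ± 7.64 and 26.2 ± 18.2 CPM.

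Precursor genes lay mostly on the other side with all 7 libraries, but near the share of all genes without sgRosa replicate 4. Of 12 genes of precursors and newly formed oligodendrocytes 10 lay on the lower side, with a median log2 fold change of -0.43 and 0 called. Without that library 7 did, with a median of -0.27. Of all genes tested 8095 of 14412 lay lower, and 7402 of 14096 without that library. Bmp4, a bone morphogenetic protein made by newly formed oligodendrocytes, lay at 3.71 ± 2.14 and 0.689 ± 0.309 CPM, Lhfpl3 at 9.22 ± 1.36 and 5.36 ± 2.54 CPM, and Vcan, a matrix proteoglycan, at 4.12 ± 1.94 and 2.35 ± 1.49 CPM. The groups overlapped for each of them. For Bmp4, sgRosa replicate 3 at 0.543 CPM lay within the low sgNr2f2 values of 0.423 to 1.03 CPM. The 12 genes together took 0.00814 to 0.0258% of counts. Of the neuron genes 14 of 16 lay on the lower side, with a median of -0.82, and without sgRosa replicate 4 they were 11, with a median of -0.22. On the higher side were 4 of 10 astrocyte genes, 5 of 8 endothelial genes, 6 of 10 microglia genes, 3 of the 5 Schwann cell genes tested, 0 of 6 pericyte and smooth muscle genes and 0 of 5 erythroid genes, none called. These values stood beside those of the myelin genes, and the part of cell makeup in either was not tested.

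The genes most like the 9 were sought by Pearson correlation of log2 CPM with the mean log2 CPM of the 9 over the 7 libraries, among 12782 other genes with a mean of at least 20 counts. The 10 with the highest r were B3galt5, a glycosyltransferase gene, Lrp4, a receptor of the low-density lipoprotein receptor family, the kinase genes Pak1 and Pak7, the serine synthesis gene Psat1, Dock10, the transaminase gene Gpt2, Tmeff2, Nbas and the phosphatase gene Synj2. Their r ran from 0.986 for Pak7 to 0.995 for B3galt5, and from 0.967 to 0.99 in the 6 libraries without sgRosa replicate 4. None was on any of the 11 lists used here. In sgNr2f2 against sgRosa their log2 fold changes ran from 0.46 for Lrp4 to 0.71 for B3galt5, none called. With 7 libraries that share depth and cell makeup, and 12782 genes to choose from, high values of r are a description only.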

How the data were processed

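RNA-seq counts were analysed for 4 sgRosa and 3 sgNr2f2 libraries, each made from 5 ng of total RNA. Raw counts for each gene symbol were deposited by the authors in 1 table and, with equal values, in 7 single-library files. Per the submitters' processing notes, tools included STAR 2.7.5c, featureCounts 2.0.1, fastp 0.23.2 and edgeR 3.42.4, and the build was mm10. Which annotation, strand setting and multi-mapping rule were used is not given in the sources used here. In GENCODE M21 no other gene shared exon bases with any of the 9 genes, while Dnajc7 overlapped Cnp outside exons on the other strand.

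Counts were fitted with edgeR 4.0.16 in R 4.3.3 (quasi-likelihood F test) with TMM factors and filterByExpr, and with no covariate beside the group. Adjustment was by Benjamini-Hochberg over the 14412 genes kept, with a threshold of 0.05. CPM were TMM-scaled, and log2 CPM used a prior count of 2. Alternatives used DESeq2 1.42.0, limma 3.58.1, other scalings and filters, left-out libraries and a replicate block. The fits were tested on simulated data with planted changes far larger than those of the myelin genes. That test does not show whether changes as small as theirs would be called. The labels name no batch that splits the libraries.

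The named genes are the 9, Nr2f2, up to 3 genes of smallest p from other lists (of 10, given here for the 3 oligodendrocyte lists), and the 10 genes most like the 9. Lists of other cell types are described by their counts of genes, medians and shares of library counts. Snap25 and Rbfox3 are named only as examples of the neuron list. The members and lists were chosen with earlier results of these data known.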

Additional observations from a re-analysis of the deposited data

Results flagged for a closer look

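Of 27 measures tested for a lone far value among the 4 sgRosa libraries, 7 had one, always sgRosa replicate 4. Chance flags about 1 in 20 such groups, and these measures share counts. As a percent of the 9 genes' own counts, Mbp was 37.8 there against 76.1 to 77.98 in the other sgRosa libraries, Mobp 25.3 against 16.2 to 16.8, and Plekhb1 34.2 against 4.903 to 5.12. Per 1000 Mbp counts the library had 671 of Mobp against 208 to 221, 32.04 of Mal against 2.85 to 7.05, 9.52 of Mog against 0.629 to 1.49, and 905 of Plekhb1 against 62.9 to 67.4.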

How the results depend on the processing

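Each of the 9 log2 fold changes was recomputed under 19 alternatives, 3 of them chosen after seeing the data, and 167 of 171 values kept their direction with no gene called. The 4 exceptions were Mog without sgNr2f2 replicate 1 (-0.081), Plekhb1 without sgNr2f2 replicate 3 (-0.0043), and Cldn11 with the replicate block (-0.072) and with limma-voom after leaving out sgRosa replicate 4 (-0.15). The causes were not tested. Over the fits without 1 library Mog ran from -0.081 to 1.03 and Plekhb1 from -0.0043 to 0.61. Over all genes edgeR and limma-voom called 0 under every alternative, while DESeq2 called 7, and 372 after leaving out sgRosa replicate 4, none of the 9 among either. Fitted with library size only, the median of all genes moved from -0.11 to -0.33 and that of the 9 from 0.63 to 0.38, which left the 9 above all genes by 0.72 against 0.74. Of genes at an unadjusted p under 0.05 the higher side held 43.6% with TMM and 17% with library size only. With limma-voom Mbp had 1.38 and the 9 genes a median of 0.91.

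With Mbp left out of numerator and total, the summed share of the other 8 genes was 5.78% in sgRosa and 7.602% in sgNr2f2. Whether replicate numbers pair the libraries could not be decided. Correlations of same-numbered deviations were -0.20, -0.26 and 0.09, against -0.14 to 0.25 for different numbers. With so few libraries, centred within their groups, such values cannot exclude a shared day or litter. The block, to which sgRosa replicate 4 adds nothing, called 0 genes, as did the fit without it. Without sgRosa replicate 4, an alternative added after seeing the data, the genes on the higher side went from 2 to 5 of 12 precursor genes, from 2 to 5 of 16 neuron genes and from 4 to 2 of 10 astrocyte genes.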
